A study of Homo sapiens with 36 samples.

Results

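The m6A peaks described here lie at the 3' ends of protein-coding genes and were listed as different in cells labelled with shRNAs to ALKBH5 or RBM33, against scramble cells, in UM-SCC-1, an established line of head and neck squamous cell carcinoma. A listed peak was taken when its name matched a protein-coding gene, its own 3' end lay within 1000 bases of the 3' end of that gene, and its 5' end was more than 300 bases from the gene's 5' end. The rule gave 4162 of 37709 listed peaks, or 11.0%, in 2151 genes. Of these, 1292 were listed for ALKBH5 shRNA-1, 2093 for ALKBH5 shRNA-2, 288 for RBM33 shRNA-1 and 489 for RBM33 shRNA-2. Position and name alone chose these peaks, although every listed peak had already passed the authors' own limits.

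Cells carried ALKBH5 shRNA-1, ALKBH5 shRNA-2 or the ALKBH5 Scramble control, or RBM33 shRNA-1, RBM33 shRNA-2 or the RBM33 Scramble control. All were infected with retrovirus and kept in 10 ug/mL blasticidin for 4 days, and the protocol text calls the agents siRNA where the sample titles say shRNA. Each of these groups had 3 RNA-seq and 3 m6A-seq samples in the labels, and 15 of the 18 RNA-seq libraries had a column of values. Both shRNAs of a target were compared with the same scramble group, so their tables are not independent of each other. No label states that replicates came from separate cultures, and p-values therefore cover the variation among these libraries alone, possibly technical.

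N6-methyladenosine, or m6A, is placed on messenger RNA by a methyltransferase complex built around METTL3 and METTL14, and ALKBH5 is one of the demethylases that can remove it. In mammalian transcripts the mark is concentrated near stop codons and in 3' untranslated regions, where reader proteins linked to RNA decay and translation bind it. RBM33 is an RNA-binding protein, which the title of the series describes as a reader needed for the action of ALKBH5. The comparisons ask where m6A differs when either gene is targeted.

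Few of the peaks could be shown as sequence, because sequence was at hand only near RefSeq gene starts. Of 3267 unbroken peaks considered, 11 peaks of 9 genes lay within the start-site window of another gene, from 250 bases before to 50 bases after its start (RefSeq, GRCh38.p14). The letters GGAC, a common core of the sequence that the methyltransferase prefers, were searched on the strand of the gene. They occurred in 2 of the 10 peaks of 50 bases, or 20%, against 17.1% of 421392 windows of 50 bases taken from both strands of all start-site windows. The sites below come from peaks with higher m6A in the authors' deposited tables, in PCBP1, which encodes a poly(C)-binding protein, and in DHRS13, a member of the short-chain dehydrogenase family. Capitals mark the GGAC core, and each line runs 5' to 3' on the strand of the gene.
PCBP1 chr2:70088376-70088405 (+), ALKBH5 shRNA-2: ccatgacctggagGGACcacctctagatgc
PCBP1 chr2:70088406-70088435 (+), ALKBH5 shRNA-1: ctactcgattcaaGGACaacacaccatttc
DHRS13 chr17:28897852-28897881 (-), ALKBH5 shRNA-2: cgaggtgccccatgggagtaaggGGACgcc

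The PCBP1 peak of ALKBH5 shRNA-2 spanned chr2:70088253-70088452 with a deposited effect of 0.74, and that of ALKBH5 shRNA-1 spanned chr2:70088403-70088452 with a deposited effect of 0.96, in the authors' deposited tables. The DHRS13 peak at chr17:28897852-28897901 had an effect of 0.85 in the authors' deposited table for ALKBH5 shRNA-2. These effects are natural logarithms of shRNA over scramble, so that a value above 0 means higher m6A in the shRNA cells. DHRS13 had 6 listed 3'-end peaks in that table, the most of any gene there. The other 3'-end peaks within start-site windows, in WDR74, KRT10, ECSIT, GEMIN7, CEBPB, SLC2A4RG and LRCH4, did not hold these letters on the gene's strand. A match is a description of the letters and not of a modified base.

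The share of 3'-end peaks with higher m6A was smallest with ALKBH5 shRNA-1 and largest with RBM33 shRNA-2. With ALKBH5 shRNA-1, 599 of 1292 peaks (46.4%) had higher m6A and 693 had lower m6A, where 64.7% of all peaks in the same table were higher. With ALKBH5 shRNA-2, 1395 of 2093 peaks (66.7%) were higher and 698 lower, where 72.5% of the whole table was higher. With RBM33 shRNA-1, 260 of 288 (90.3%) were higher and 28 lower, close to the 87.6% of the whole table. With RBM33 shRNA-2, 452 of 489 (92.4%) were higher and 37 lower, against 87.5% of the whole table. Peaks are not replicates and m6A values of single libraries were not used here, so these shares carry no test and the spread between m6A libraries is unknown.

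**Figure D1:**
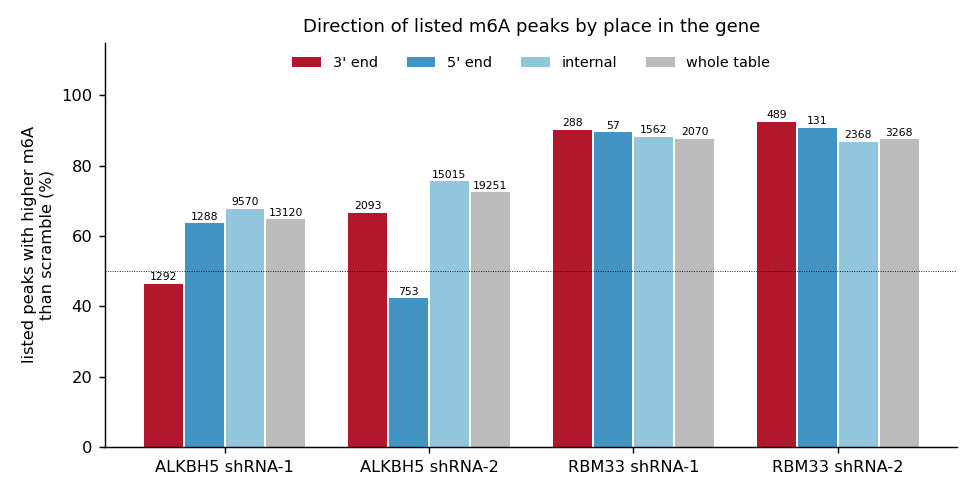
Share of listed m6A peaks with higher m6A in shRNA cells than in scramble cells (%, vertical axis) for each shRNA, at 3' ends, at 5' ends, inside genes and over the whole table. Numbers above bars are peaks and the dotted line is at 50%. The 3'-end bar of ALKBH5 shRNA-1 stands at 46.4%, and those of the RBM33 shRNAs stand at 90.3% and 92.4%.

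The contrast with other positions also differed between the ALKBH5 shRNAs. Peaks at 5' ends were higher in 63.7% of 1288 with ALKBH5 shRNA-1 and in 42.2% of 753 with ALKBH5 shRNA-2. Peaks inside genes were higher in 67.7% of 9570 with ALKBH5 shRNA-1 and in 75.5% of 15015 with ALKBH5 shRNA-2. With ALKBH5 shRNA-1 the 3' end was thus the position with the smallest share of higher peaks, and with ALKBH5 shRNA-2 the 5' end was. In the RBM33 tables the 3' end, the 5' end and the inside of genes had shares of 90.3%, 89.5% and 88.3% for shRNA-1 and of 92.4%, 90.8% and 86.9% for shRNA-2.

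The sizes of the effects had similar medians for all 4 shRNAs. Among 3'-end peaks with higher m6A, the median fold (shRNA over scramble) was 2.59 with ALKBH5 shRNA-1, 2.85 with ALKBH5 shRNA-2, 2.90 with RBM33 shRNA-1 and 3.00 with RBM33 shRNA-2. Among those with lower m6A, the median fold was 0.388, 0.440, 0.456 and 0.400 in the same order of shRNAs. The authors listed only effects of at least 0.5 in size, so smaller differences at 3' ends are outside these data. Between 83.4% and 91.7% of the peaks in a table were 50 bases wide, and between 9.03% and 11.3% were joined across an intron, against 17.0% to 22.2% of all listed peaks.

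With ALKBH5 shRNA-1 the share of higher peaks was smallest at the very end of the gene and larger further inside. It was 33.9% of 298 peaks within 250 bases of the gene's end, 47.0% of 351 from 250 to 500 bases, 50.9% of 322 from 500 to 750 bases and 53.2% of 314 from 750 to 1000 bases. Further inside, it was 54.7% from 1000 to 1500 bases, 72.0% from 5000 to 10000 bases and 71.7% beyond 10000 bases. With ALKBH5 shRNA-2 the same steps within 1000 bases gave 64.0%, 70.5%, 66.7% and 65.8%, with no such order, and 78.5% from 5000 to 10000 bases. The RBM33 tables stayed between 81.0% and 96.1% in every step inside the gene.

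**Figure D2:**
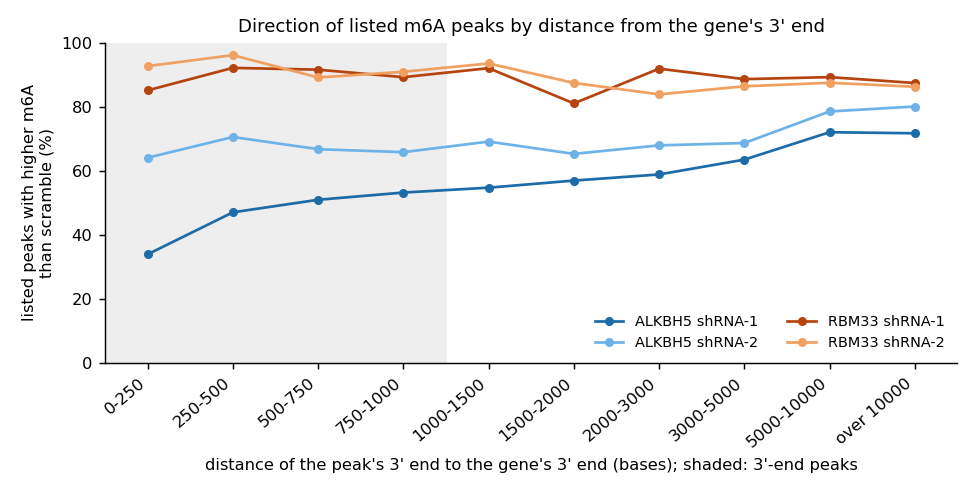
Share of listed m6A peaks with higher m6A in shRNA cells (%, vertical axis) by the distance in bases from the peak's 3' end to the gene's 3' end (horizontal axis, unequal steps), 1 line for each shRNA. The shaded steps are the 3'-end peaks, and the ALKBH5 shRNA-1 line starts at 33.9% and reaches 53.2% within them.

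Peaks on either side of the limit of 1000 bases were compared over 100 bases each. With ALKBH5 shRNA-1, 52.2% of 134 peaks just inside were higher and 53.1% of 113 just outside. For RBM33 shRNA-1 these shares were 93.1% of 29 inside and 92% of 25 outside, and for RBM33 shRNA-2 they were 97.7% of 43 inside and 92.1% of 38 outside. For ALKBH5 shRNA-2 they were 62.0% of 200 inside and 74.7% of 190 outside. The peaks reached past the annotated end of the gene in 5, 19, 4 and 5 cases for ALKBH5 shRNA-1, ALKBH5 shRNA-2, RBM33 shRNA-1 and RBM33 shRNA-2.

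Many genes with a 3'-end peak also had a listed peak further inside, and the ends did not always follow the inside. With ALKBH5 shRNA-1 this was so for 545 of 1028 genes, 411 of which had a single direction at each place. Both places were higher in 158 of them and lower in 118, while the 3' end was lower and the inside higher in 86, and the opposite held in 49. With ALKBH5 shRNA-2, 982 of 1524 genes had both, and of 736 with a single direction at each place 482 were higher and 58 lower at both, 155 were lower at the 3' end with a higher inside, and 41 were the opposite. With RBM33 shRNA-1 both places were higher in 57 of 61 such genes, and with RBM33 shRNA-2 in 136 of 140.

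Within the last 1000 bases some genes had peaks in both directions, all of them in the ALKBH5 tables. Of the genes with several 3'-end peaks, 59 of 200 with ALKBH5 shRNA-1 and 112 of 421 with ALKBH5 shRNA-2 had both directions, against 0 of 33 with RBM33 shRNA-1 and 0 of 58 with RBM33 shRNA-2. The lower peaks lay nearer the gene's end than the higher ones in 33 of the 59 and in 67 of the 112. ATF4, the transcription factor of the amino acid and stress response, was one of them. With ALKBH5 shRNA-2, it had effects of 1.5 and 1.11 at 624 and 374 bases from the gene's end and of -1.51 in a peak that reached 3 bases past that end (position -3), in the authors' deposited table.

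Some of the peaks overlapped another listed gene on either strand. No other listed gene overlapped 984 of the 1292 ALKBH5 shRNA-1 peaks, 1583 of the 2093 ALKBH5 shRNA-2 peaks, 211 of the 288 RBM33 shRNA-1 peaks and 360 of the 489 RBM33 shRNA-2 peaks. Among these the shares with higher m6A were 44.7%, 66.6%, 90.5% and 91.4%, each within 2 percentage points of the share over all 3'-end peaks.

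The ALKBH5 and RBM33 sets have separate scramble groups and can be compared gene by gene. A 3'-end peak was listed for 1971 genes with either ALKBH5 shRNA and for 543 with either RBM33 shRNA. The 363 genes in both made up 18.4% of the ALKBH5 genes and 66.9% of the RBM33 genes. Peaks were joined into loci by overlaps chained across shRNAs, so the peaks of a locus need not all share a base. There were 3031 ALKBH5 loci and 669 RBM33 loci, with 175 in both, which is 5.77% of the ALKBH5 loci and 26.2% of the RBM33 loci. Of these 175, 158 had higher m6A in both sets, 10 had lower m6A in both, 7 had lower m6A with ALKBH5 shRNAs and higher m6A with RBM33 shRNAs, and 0 had the opposite.

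At 18 loci a peak was listed for all 4 shRNAs, and all 18 had higher m6A with each. At some of them, such as those of DDIT4, FANCA and SF3B4 below, the peaks of certain shRNAs had no base in common. Such peaks were joined only through a peak of another shRNA. The values that follow are the effects for ALKBH5 shRNA-1, ALKBH5 shRNA-2, RBM33 shRNA-1 and RBM33 shRNA-2, in that order, taken at each locus from the peak with the lowest p in the authors' deposited tables. SF3A2, a subunit of the SF3a splicing factor of the U2 snRNP, had 2 of the 18 loci. At chr19:2248330-2248579 (+, hg38) its effects were 1.43, 2.96, 3.76 and 3.82, and at chr19:2247626-2248129 they were 1.62, 1.98, 2.79 and 2.75, in the authors' deposited tables. Both loci of SF3A2 thus had larger effects with the RBM33 shRNAs than with the ALKBH5 shRNAs. SF3B4, a subunit of the related SF3b complex, had effects of 1.03, 1.27, 0.72 and 0.96 in the authors' deposited tables.

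Other shared loci belonged to transcription factors. HES4, a basic helix-loop-helix repressor of the Notch pathway, had effects of 1.16, 1.80, 2.13 and 2.22 at chr1:998962-999051 (-), which is the last stretch of the gene, in the authors' deposited tables. TCF3, which encodes the E proteins E12 and E47, had 1.29, 1.68, 1.31 and 1.41 at chr19:1609918-1610017 (-) in the authors' deposited tables. ATF4 had 1.27, 1.5, 0.83 and 0.82, and its relative ATF3 had 0.97, 1.08, 0.73 and 0.62, in the authors' deposited tables. For ATF4 and ATF3 the ALKBH5 effects were the larger ones, unlike for HES4.

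MRPL4, a protein of the large mitochondrial ribosomal subunit, had effects of 2.25, 2.13, 1.43 and 1.45 at chr19:10259607-10259656 (+) in the authors' deposited tables. FANCA, a core protein of the Fanconi anaemia DNA repair pathway, had 1.45, 1.79, 1.19 and 0.93, and CBS, which condenses homocysteine with serine, had 1.06, 1.20, 0.96 and 1.16, in the authors' deposited tables. MIEN1 had 1.03, 0.95, 0.79 and 1.25, and UQCRHL had 1.75, 0.98, 1.71 and 1.26, in the authors' deposited tables. UQCRHL is a near-identical copy of UQCRH and CBS has a near-identical copy on the same chromosome, so reads could be split between copies and both are uncertain. DDIT4, a stress-induced inhibitor of mTORC1, was also among the 18, with 1.22, 1.20, 0.62 and 0.55 in the authors' deposited tables, and NCLN, UBB and CTSL were too.

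**Figure D3:**
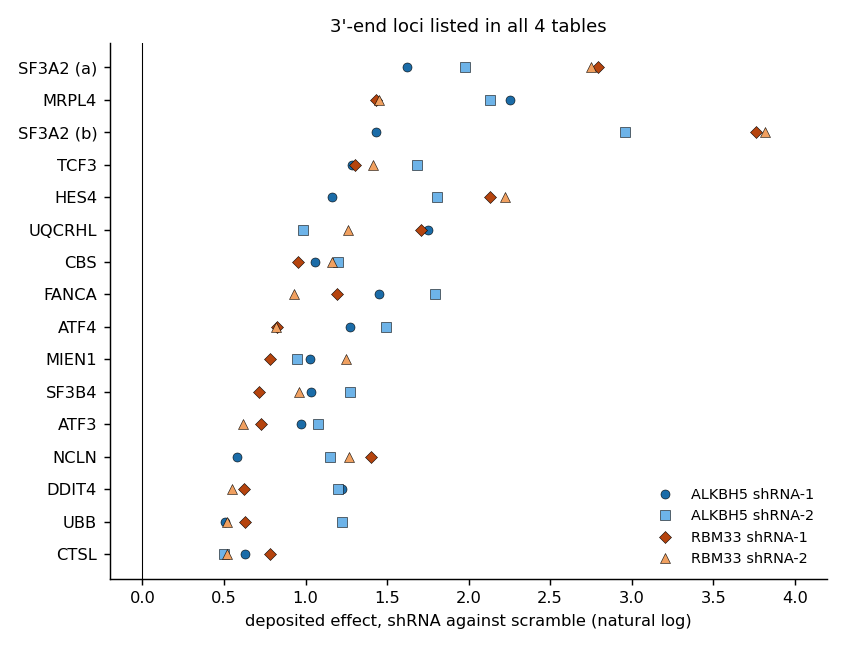
Deposited m6A effect of shRNA against scramble (natural log, horizontal axis) at 16 of the 18 3'-end loci listed for all 4 shRNAs, 1 row per locus and 1 mark per shRNA. SF3A2 (a) is the locus further from the gene's end and SF3A2 (b) the nearer one. All marks lie above 0, with the largest at 3.82 for SF3A2 (b) and RBM33 shRNA-2.

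The largest effects of all at 3' ends lay at PIGQ and SF3A2 in the RBM33 tables. PIGQ, an enzyme subunit of the first step of GPI anchor synthesis, had a peak at chr16:584052-584136 (+) that reached 27 bases past the gene's end (position -27), with folds of 192 for RBM33 shRNA-1 and 222 for RBM33 shRNA-2 in the authors' deposited tables. The same peak had a fold of 13.1 with ALKBH5 shRNA-1 in the authors' deposited table, while with ALKBH5 shRNA-2 a neighbouring peak had a fold of 0.373. SF3A2 had a peak at chr19:2248630-2248679 that reached past the gene's end (position -24), with folds of 147 for RBM33 shRNA-1 and 167 for RBM33 shRNA-2 in the authors' deposited tables. The next listed gene downstream of SF3A2 is AMH, 654 bases away on the same strand, and that of PIGQ is RAB40C, 5248 bases away on the same strand. The part of reads that run past a gene's end in these folds was not tested.

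Large folds at 3' ends were often whole numbers. Of the 58 peaks with a fold of at least 20 or its inverse, 29 had a fold or an inverse fold that was whole within 0.0001, against 3.44% of the 4104 other 3'-end peaks. The depth behind the deposited effects is unknown, so the precision of these folds could not be given.

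Of the other extreme peaks, in genes averaging 10 CPM or more, some lay in genes with a 3'-end peak for a single shRNA. Others lay in genes whose 3'-end peaks had the same or the opposite direction with another shRNA. With ALKBH5 shRNA-1 the highest folds were 54.0 at ZBTB7B, a zinc finger transcription factor, 43.0 at NSMCE1, a subunit of the SMC5/6 complex, and 41.0 at DEF8, in the authors' deposited table. None of these was listed at the 3' end for another shRNA. The lowest folds with ALKBH5 shRNA-1 reported here were 0.0217 at ENGASE, a cytosolic glycosidase of free N-glycans, and 0.0417 at CCNL2, an L-type cyclin, in the authors' deposited table. ENGASE was also lower with ALKBH5 shRNA-2 (0.130) and RBM33 shRNA-1 (0.295), at neighbouring positions in the authors' deposited tables. CCNL2 was also lower with ALKBH5 shRNA-2 (0.331), at an adjoining position in the authors' deposited table.

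With ALKBH5 shRNA-2 the highest folds reported here were 57.0 at RANGRF and 52.0 at APEX1, the main endonuclease for abasic sites in DNA, in the authors' deposited table. RANGRF was also higher with ALKBH5 shRNA-1, at a fold of 6.08 in the authors' deposited table. The lowest folds with ALKBH5 shRNA-2 were 0.0244 at G0S2, an inhibitor of the triglyceride lipase ATGL, 0.0441 at PLCL2 and 0.0545 at ASXL1, a chromatin regulator, in the authors' deposited table. With RBM33 shRNA-1, DVL2, a signal protein of the Wnt pathway, had a fold of 50, where ALKBH5 shRNA-1 had 0.408 at another position of the same 3' end, in the authors' deposited tables. Among genes averaging 10 CPM or more, the lowest folds with RBM33 shRNA-1 included 0.145 for PLAG1 and 0.200 for FAM193B in the authors' deposited table. Those with RBM33 shRNA-2 included 0.200 for PSD3, 0.212 for the histone methyltransferase EZH1 and 0.230 for MSANTD2 in the authors' deposited table. PLAG1 was also lower with ALKBH5 shRNA-2, at a fold of 0.506 at another position in the authors' deposited table.

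Of 13783 protein-coding genes averaging 1 CPM or more, 2140 (15.5%) had a 3'-end peak with at least 1 shRNA. Of the 9968 averaging 10 CPM or more, 1878 (18.8%) had one, so the share depended on the RNA level. The gene lists of pathways below are set beside these shares with no test. Of 31 genes of the ATF4 and unfolded protein response, 20 (64.5%) had such a peak, namely 11 with ALKBH5 shRNA-1, 16 with ALKBH5 shRNA-2, 3 with RBM33 shRNA-1 and 6 with RBM33 shRNA-2. Their peaks were 8 higher and 9 lower with ALKBH5 shRNA-1, 14 higher and 10 lower with ALKBH5 shRNA-2, 3 higher and 0 lower with RBM33 shRNA-1, and 9 higher and 0 lower with RBM33 shRNA-2. ATF3, ATF4, CEBPB, SLC3A2 and SLC7A5 had such peaks in both sets. SLC3A2, the heavy chain of amino acid transporters, had a peak at chr11:62888382-62888431 (+) with effects of 0.55, 0.52 and 0.58 for ALKBH5 shRNA-2, RBM33 shRNA-1 and RBM33 shRNA-2 in the authors' deposited tables. Nearer the end of SLC3A2 the effects were -0.89 for ALKBH5 shRNA-1 and -0.87 for ALKBH5 shRNA-2 in the authors' deposited tables. SLC7A5, the light chain that pairs with SLC3A2, had effects of 0.90 and 1.23 with ALKBH5 shRNA-2 and of 1.17 and 0.75 with RBM33 shRNA-2 in the authors' deposited tables.

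Of 52 genes of mTORC1 signalling and autophagy, 10 (19.2%) had a 3'-end peak, and ATG9A, DDIT4, GABARAPL2, RPTOR and TFE3 had one in both sets. TFE3, a transcription factor of lysosomal genes, had effects of 2.01 with ALKBH5 shRNA-2 and of 1.66 and 2.77 with RBM33 shRNA-2 in the authors' deposited tables. RPTOR, the scaffold of mTORC1, had effects of 1.10 and 3.07 with RBM33 shRNA-2, against -0.55 with ALKBH5 shRNA-1 at another position, in the authors' deposited tables. ATG9A, the membrane protein of early autophagosomes, had effects of 0.54 with ALKBH5 shRNA-2 and 1.44 with RBM33 shRNA-2, and GABARAPL2, an ATG8 family protein, had 1.13 with ALKBH5 shRNA-2 and 0.86 with RBM33 shRNA-1, in the authors' deposited tables.

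A 3'-end peak was also listed for 10 of 25 heat shock genes (40%) and 9 of 45 cell cycle genes (20%). It was listed for 5 of 32 measured squamous and head and neck cancer genes (15.6%), 5 of 27 genes of cleavage and polyadenylation (18.5%) and 3 of 28 measured genes of the m6A machinery (10.7%). In both sets, the cell cycle list had AURKB, the mitotic kinase of the chromosomal passenger complex, and the cancer list had EPHA2, an ephrin receptor. AURKB had effects of 1.28 and 1.49 with ALKBH5 shRNA-2 and 1.2 with RBM33 shRNA-1, and EPHA2 had -1.46 with ALKBH5 shRNA-2 and 1.47 with RBM33 shRNA-2 at another position, in the authors' deposited tables. ALKBH5 and RBM33 themselves had no 3'-end peak in the effect tables.

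The authors also deposited an m6A level, a fraction that is not taken here as a share of methylated transcripts. It is given for fewer peaks, in a second kind of deposited table. By the same rule this second kind held 76 3'-end peaks for ALKBH5 shRNA-1, of which 43 were higher, and 36 for ALKBH5 shRNA-2 (34 higher). It held 5 for RBM33 shRNA-1 (3 higher) and 7 for RBM33 shRNA-2 (6 higher). The shares that were higher are 56.6%, 94.4%, 60% and 85.7%, against 67.7%, 91.2%, 65% and 83.3% of all peaks with a position in the same tables. Of the 3'-end peaks with a level, 42, 25, 2 and 3 overlapped a 3'-end peak of the effect table for the same shRNA, and 41, 25, 2 and 3 had the same direction there. Both kinds of table come from the same libraries and are not independent.

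ATF4 was the gene with a 3'-end level for all 4 shRNAs. Its level was 31.4% with ALKBH5 shRNA-1 against 16.4% in scramble (adjusted p = 0.014), and 43.6% with ALKBH5 shRNA-2 against 22.2% in scramble (adjusted p = 0.0083), both in the authors' deposited tables. It was 38.9% with RBM33 shRNA-1 against 21.4% in scramble (adjusted p = 0.067), and 41.6% with RBM33 shRNA-2 against 22.2% in scramble (adjusted p = 0.099), both in the authors' deposited tables. The RBM33 differences for ATF4 thus miss an adjusted p of 0.05, and the tables run up to about 0.1.

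Levels were also listed for other genes named above. SF3A2 had 85.6% with ALKBH5 shRNA-1 against 58.9% in scramble, and 86.8% with ALKBH5 shRNA-2 against 62.0% in scramble, in the authors' deposited tables. HES4 had 81.0% with RBM33 shRNA-1 against 66.1% in scramble, and 83.5% with RBM33 shRNA-2 against 66.6% in scramble, in the authors' deposited tables. With ALKBH5 shRNA-2, DDIT4 had 78.7% against 56.8% in scramble, CBS 69.5% against 41.5%, and PPDPF 77.1% against 58.6%, in the authors' deposited table. HMG20B, a component of the CoREST complex, was lower, at 32.5% with ALKBH5 shRNA-1 against 63.2% in scramble in the authors' deposited table. ALKBH5, which was absent at this position from the effect tables, had a level of 60.1% with ALKBH5 shRNA-1 against 34.4% in scramble in the authors' deposited table, where its adjusted p of 0.0997 misses 0.05.

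The RNA-seq inputs show the RNA level of the same genes in each library, at 4493849 to 6733017 reads per library. ALKBH5 itself had 84.7 and 84.8 CPM, a level scaled to library size, with ALKBH5 shRNA-1 and 75.1 and 89.6 CPM with ALKBH5 shRNA-2, against 109, 132 and 123 CPM in ALKBH5 Scramble. The groups did not overlap, and the change was -0.53 (log2 of CPM + 1, SE 0.08, limma adjusted p = 9.11e-05). RBM33 had 191 and 204 CPM with RBM33 shRNA-1 and 208, 199 and 214 CPM with RBM33 shRNA-2, against 217, 207 and 227 CPM in RBM33 Scramble. These groups overlapped, and the difference of -0.10 (SE 0.06, limma adjusted p = 0.27) did not pass the test, so RNA did not check the labels of the libraries labelled RBM33 shRNA. Of 10 markers of squamous epithelium 4 were listed, 3 of them averaging 1 CPM or more, with a summed level of 174 to 220 CPM. KRT5, KRT14, KRT17, KRT6A, TP63 and PKP1 were not listed. All 6 fibroblast markers were listed, 5 of them averaging 1 CPM or more, at a summed 26.5 to 40.3 CPM. Of 5 leukocyte, 4 endothelium and 4 melanocyte markers, 2 each were listed, at sums of at most 4.24, 5.47 and 15.5 CPM. These markers thus did not check the squamous identity of the line.

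Among genes with a 3'-end peak, more rose than fell in RNA with the ALKBH5 shRNAs, and more fell than rose in the libraries labelled RBM33 shRNA. Of 1971 ALKBH5 genes, 1964 were tested, and 331 (16.9%) rose while 129 (6.57%) fell, by limma over 18227 genes at an adjusted p under 0.05. Of all tested genes 7.93% rose and 7.18% fell, and of genes with listed peaks elsewhere but none at the 3' end 9.57% rose and 12.1% fell. The shares over all genes depended on the lowest RNA level allowed. Over the 12887 genes averaging at least 5 CPM, 11.0% rose and 10.9% fell, and 342 ALKBH5 genes rose and 147 fell. Of 543 RBM33 genes, 539 were tested, and 48 (8.91%) rose while 122 (22.6%) fell. Of all tested genes 8.50% rose and 9.25% fell in that comparison, and of genes with peaks elsewhere only 15.8% rose and 12.5% fell. Over genes averaging at least 5 CPM, 11.3% rose and 13.3% fell, and 50 RBM33 genes rose and 119 fell. The median change of the 3'-end genes was 0.06 for ALKBH5 and -0.11 for RBM33 on the log2 scale, against 0.01 and -0.01 over all tested genes.

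**Figure D4:**
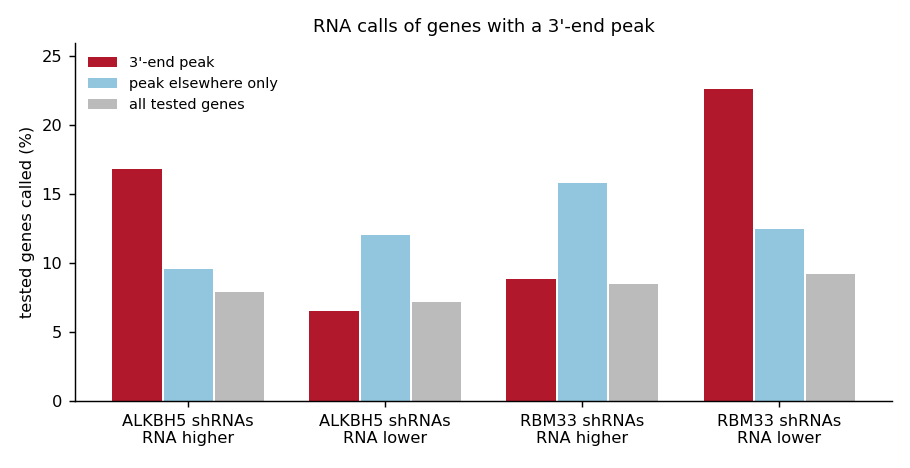
Share of tested genes (%, vertical axis) whose RNA rose or fell by limma, for genes with a 3'-end peak, genes with a listed peak elsewhere only, and all tested genes. With the ALKBH5 shRNAs 16.9% of the 3'-end genes rose, and with the RBM33 shRNAs 22.6% fell.

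Leaving out a scramble library lowered the counts over all genes as well as those over genes with a 3'-end peak. Without ALKBH5 Scramble replicate 1 the count of ALKBH5 genes that rose was 219, beside 5.24% of all tested genes. Without ALKBH5 Scramble replicate 2 or 3 the count that fell was 79 or 85, beside 4.84% or 4.96% of all tested genes. Without RBM33 Scramble replicate 1 or 2 the count of RBM33 genes that fell was 74 or 72, beside 5.51% or 5.63% of all tested genes.

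RNA calls were also counted by the direction of m6A. With the ALKBH5 shRNAs, 156 of 1012 tested genes with higher m6A at the 3' end rose and 73 fell, and 126 of 687 with lower m6A rose and 42 fell. Of 265 tested genes with both directions among their 3'-end peaks, 49 rose and 14 fell. With the RBM33 shRNAs, 41 of 487 with higher m6A rose and 120 fell, and 7 of 51 with lower m6A rose and 2 fell. The 1 RBM33 gene with both directions was not called. The Spearman correlation of the effect with the RNA change of the same shRNA, across genes, was -0.15 over 1027 genes with ALKBH5 shRNA-1 and -0.10 over 1518 with ALKBH5 shRNA-2. It was -0.02 over 240 genes with RBM33 shRNA-1 and -0.02 over 410 with RBM33 shRNA-2. Genes are not independent replicates, and both measures use the same input libraries.

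DDIT4 had a 3'-end locus listed for all 4 shRNAs, and its RNA fell in both sets. Its RNA was 174 and 157 CPM with ALKBH5 shRNA-1 and 174 and 167 CPM with ALKBH5 shRNA-2, against 294, 294 and 314 CPM in ALKBH5 Scramble. It was 162 and 167 CPM with RBM33 shRNA-1 and 178, 182 and 168 CPM with RBM33 shRNA-2, against 361, 369 and 321 CPM in RBM33 Scramble. No shRNA library overlapped a scramble library, and the changes were -0.84 (SE 0.07, limma adjusted p = 1.38e-08) and -1.04 (SE 0.07, limma adjusted p = 7.78e-11).

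Among the 581 genes with a 3'-end peak for both ALKBH5 shRNAs, 113 rose and 43 fell, where 7.93% of all tested genes rose and 7.18% fell. Over genes averaging at least 5 CPM, 11.0% rose and 10.9% fell. PPDPF, named for a role in pancreatic development in zebrafish, had the largest fall, with 41.3 and 37.4 CPM with ALKBH5 shRNA-1 and 26.2 and 29.3 CPM with ALKBH5 shRNA-2, against 91.2, 67.0 and 69.0 CPM in ALKBH5 Scramble. The groups did not overlap (-1.16, SE 0.12, limma adjusted p = 7.03e-07), and its m6A effects were 0.68 and 1.20 with ALKBH5 shRNA-1 and shRNA-2 in the authors' deposited tables. SLC25A28, a mitochondrial iron importer, fell by 0.98 (SE 0.19, limma adjusted p = 0.00098), and the apoptosis inhibitor BIRC2 fell by 0.66 (SE 0.11, limma adjusted p = 0.0002). TMEM74B fell by 0.93 (SE 0.28, limma adjusted p = 0.027), a call that was lost without any one of 6 of its 7 ALKBH5 libraries. All of these genes had higher m6A at the 3' end with both ALKBH5 shRNAs.

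The genes that rose most did not share a direction of m6A. HSPA8, the constitutive HSP70 chaperone, had 459 and 465 CPM with ALKBH5 shRNA-1 and 506 and 404 CPM with ALKBH5 shRNA-2, against 210, 169 and 166 CPM in ALKBH5 Scramble (1.33, SE 0.08, limma adjusted p = 1.02e-10). Its m6A effects were 1.51 with ALKBH5 shRNA-1 and up to 2.26 with ALKBH5 shRNA-2 in the authors' deposited tables. HSPA8 RNA also rose with the RBM33 shRNAs, for which no 3'-end peak of it was listed (0.99, SE 0.08, limma adjusted p = 6.49e-09). HSPA1B, an inducible HSP70, rose by 3.84 (SE 0.09, limma adjusted p = 6.96e-20) with effects of -1.19 and -1.22 for ALKBH5 shRNA-1 and -0.84 for ALKBH5 shRNA-2 in the authors' deposited tables. Its near-identical copy HSPA1A rose by 3.47 (SE 0.08, limma adjusted p = 1.46e-19) with the RBM33 shRNAs, with effects of 2.25 and 1.51 for RBM33 shRNA-1 and shRNA-2 in the authors' deposited tables, so reads of this pair and the split between them are uncertain.

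DUSP1, a phosphatase of MAP kinases, had lower m6A and higher RNA with the ALKBH5 shRNAs. Its effects were -0.63 with ALKBH5 shRNA-1 and -0.55 with ALKBH5 shRNA-2 in the authors' deposited tables, and its RNA rose by 1.16 (SE 0.11, limma adjusted p = 2.05e-07). DUSP1 RNA also rose with the RBM33 shRNAs, for which no 3'-end peak of it was listed (0.79, SE 0.11, limma adjusted p = 1.75e-05). DDX39A, an RNA helicase of messenger RNA export, had higher m6A and higher RNA. It had 105 and 102 CPM with ALKBH5 shRNA-1 and 88.5 and 96.7 CPM with ALKBH5 shRNA-2, against 47.6, 52.4 and 36.8 CPM in ALKBH5 Scramble, without overlap (1.10, SE 0.10, limma adjusted p = 3.89e-08). DDX39A RNA rose with the RBM33 shRNAs too, again with no 3'-end peak listed for them (1.08, SE 0.09, limma adjusted p = 1.55e-08). BOLA1, a mitochondrial protein of iron-sulfur metabolism, rose by 1.12 (SE 0.22, limma adjusted p = 0.0011), with an effect of 0.96 with ALKBH5 shRNA-1 and effects of -0.99 and -0.81 with ALKBH5 shRNA-2 in the authors' deposited tables.

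Among the 111 genes with a 3'-end peak for both RBM33 shRNAs, 9 rose and 34 fell, where 8.50% of all tested genes rose and 9.25% fell. Over genes averaging at least 5 CPM, 11.3% rose and 13.3% fell. BTBD2 had 26.7 and 33.6 CPM with RBM33 shRNA-1 and 29.9, 28.6 and 27.2 CPM with RBM33 shRNA-2, against 76.1, 72.1 and 73.2 CPM in RBM33 Scramble. The groups did not overlap (-1.31, SE 0.11, limma adjusted p = 1.55e-08), and its effects were 0.93 and 0.74 with RBM33 shRNA-1 and shRNA-2 in the authors' deposited tables. SCRN2 fell by 1.30 (SE 0.20, limma adjusted p = 4.92e-05) and MFSD3 fell by 1.19 (SE 0.23, limma adjusted p = 0.00093). SCRN2 had a peak at chr17:47838215-47838264 (-) with effects of 2.56 and 2.77 for RBM33 shRNA-1 and shRNA-2, and of -0.77 for ALKBH5 shRNA-1, in the authors' deposited tables.

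HMG20B also had different directions in the ALKBH5 and RBM33 sets. Its effects were 1.48 with RBM33 shRNA-1 and 1.55, 0.81 and 1.29 with RBM33 shRNA-2, against -0.82 with ALKBH5 shRNA-1 nearer the gene's end, in the authors' deposited tables. Its RNA was 79.3 and 79.3 CPM with RBM33 shRNA-1 and 86.6, 82.0 and 76.0 CPM with RBM33 shRNA-2, against 145, 145 and 138 CPM in RBM33 Scramble. No shRNA library reached a scramble library (-0.82, SE 0.07, limma adjusted p = 3.12e-08).

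The RBM33 genes named here for a rise had higher m6A at the 3' end with both shRNAs. ATN1, a nuclear corepressor, had 48.0 and 62.7 CPM with RBM33 shRNA-1 and 49.9, 52.5 and 54.9 CPM with RBM33 shRNA-2, against 24.6, 28.3 and 31.3 CPM in RBM33 Scramble (0.92, SE 0.10, limma adjusted p = 1.32e-06). Its peak at chr12:6941903-6941952 (+) had effects of 1.38 and 1.66 for RBM33 shRNA-1 and shRNA-2 and 0.96 for ALKBH5 shRNA-1 in the authors' deposited tables. FANCA had 92.1 and 97.05 CPM with RBM33 shRNA-1 and 84.4, 97.6 and 100.2 CPM with RBM33 shRNA-2, against 74.2, 62.1 and 61.0 CPM in RBM33 Scramble (0.52, SE 0.08, limma adjusted p = 0.00012). Neither gene had a shRNA library within the range of its scramble libraries. CC2D1A rose by 0.46 (SE 0.12, limma adjusted p = 0.0077) and CAPN15, a calpain, by 0.41 (SE 0.10, limma adjusted p = 0.0037).

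**Figure D5:**
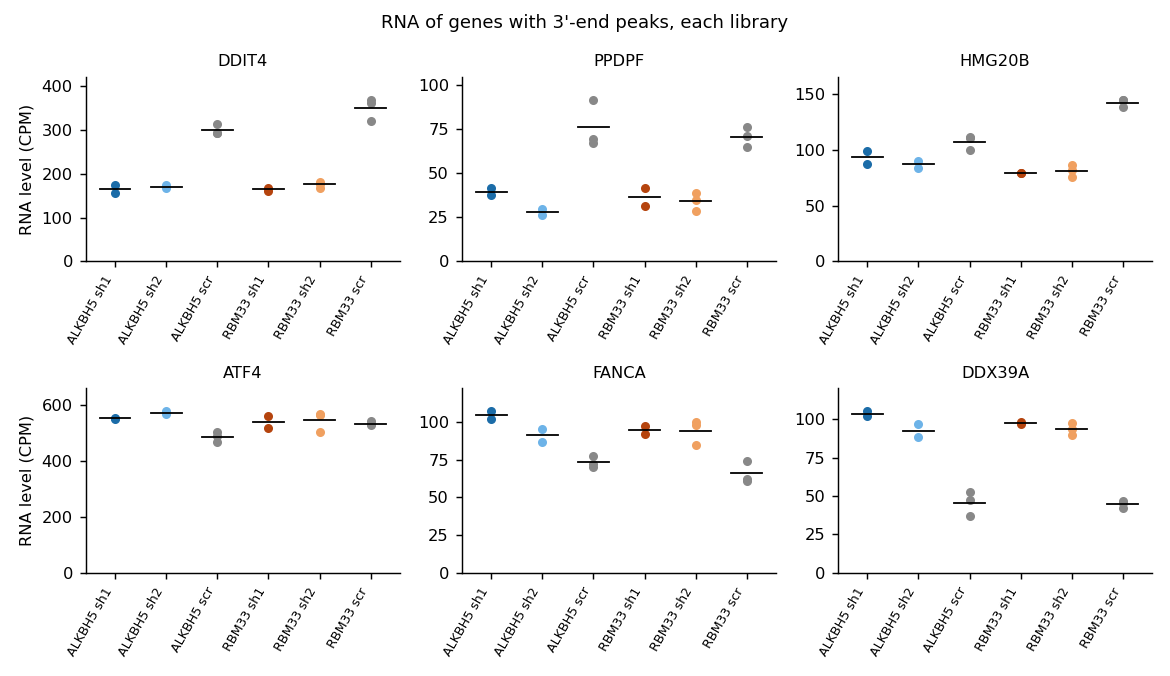
RNA level (CPM, vertical axis from 0) of 6 genes with 3'-end peaks in each library, with shRNA groups left of their scramble group (scr). Points are libraries and lines are group means, and n is 2 or 3 per group. DDIT4 and PPDPF lie below their scramble libraries in both sets, DDX39A and FANCA lie above them, and HMG20B lies below all 3 RBM33 Scramble libraries.

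ATF4, HES4 and SF3A2 had shared loci too. ATF4 RNA was 555 and 551 CPM with ALKBH5 shRNA-1 and 568 and 578 CPM with ALKBH5 shRNA-2, against 468, 503 and 489 CPM in ALKBH5 Scramble, a rise of 0.21 (SE 0.06, limma adjusted p = 0.026). That call was lost without ALKBH5 shRNA-1 replicate 1, ALKBH5 shRNA-2 replicate 3, or ALKBH5 Scramble replicate 1 or 3, at adjusted p from 0.056 to 0.11 (limma). With the RBM33 shRNAs the ATF4 difference was 0.02 (SE 0.06, limma adjusted p = 0.86). HES4 fell by 0.43 (SE 0.11, limma adjusted p = 0.0059) with the RBM33 shRNAs, where the adjusted p was 0.051 without RBM33 Scramble replicate 1. SF3A2, with the largest shared m6A effects, had RNA differences of 0.04 (SE 0.10, limma adjusted p = 0.85) with the ALKBH5 shRNAs and 0.25 (SE 0.10, limma adjusted p = 0.081) with the RBM33 shRNAs.

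Of the extreme peaks, those at G0S2 lay in the gene with the lowest RNA relative to scramble among the genes named here. G0S2 had 6.45 and 7.66 CPM with ALKBH5 shRNA-1 and 3.63 and 5.59 CPM with ALKBH5 shRNA-2, against 25.7, 22.1 and 34.9 CPM in ALKBH5 Scramble (-2.08, SE 0.23, limma adjusted p = 1.28e-06). Its fall was larger with the RBM33 shRNAs, for which no 3'-end peak of G0S2 was listed (-2.82, SE 0.22, limma adjusted p = 4.58e-09). PIGQ fell by 0.60 (SE 0.15, limma adjusted p = 0.0059) with the RBM33 shRNAs. APEX1 rose by 0.56 (SE 0.08, limma adjusted p = 2.03e-05) and DEF8 by 0.80 (SE 0.16, limma adjusted p = 0.0018) with the ALKBH5 shRNAs, while CCNL2 had a difference of 0.01 (limma adjusted p = 0.96).

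RNA calls of the pathway lists are set beside those of all tested genes, with no test. Of all tested genes 7.93% rose and 7.18% fell with the ALKBH5 shRNAs, and 8.50% rose and 9.25% fell with the RBM33 shRNAs. Over genes averaging at least 5 CPM, the same shares were 11.0%, 10.9%, 11.3% and 13.3%. Among the lists, heat shock genes rose in both sets. Of 24 heat shock genes tested, 18 rose and 1 fell with the ALKBH5 shRNAs and 17 rose and 1 fell with the RBM33 shRNAs. With the ALKBH5 shRNAs, 8 of the 9 with an ALKBH5 3'-end peak rose. Of 31 genes of the ATF4 and unfolded protein response, 3 rose and 10 fell with the ALKBH5 shRNAs and 1 rose and 13 fell with the RBM33 shRNAs. Of the 19 of them with an ALKBH5 3'-end peak 2 rose and 5 fell, and of the 6 with a RBM33 3'-end peak 1 rose and 0 fell. In the mTORC1 and autophagy list, 3 of 10 genes with an ALKBH5 3'-end peak rose and 1 fell, and 1 of 5 with a RBM33 3'-end peak rose and 2 fell. RPTOR rose by 0.57 (SE 0.09, limma adjusted p = 0.00017) with the ALKBH5 shRNAs and by 0.77 (SE 0.09, limma adjusted p = 1.42e-06) with the RBM33 shRNAs. Of cell cycle genes with a 3'-end peak 3 of 8 rose and 1 fell with the ALKBH5 shRNAs, and AURKB fell in both sets, by 0.35 (SE 0.08, limma adjusted p = 0.0049) and by 0.51 (SE 0.08, limma adjusted p = 7.76e-05).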

How the data were processed

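The submitters' processing notes name cutadapt 1.18, HISAT2 2.1.0, featureCounts (Subread 1.6.4) and edgeR 3.24.3, the last for the RNA table, and the build hg38. Which program called the peaks is not given in the sources at hand. The authors deposited m6A effects with unadjusted p-values, and the effects are on the natural log scale, since 5.60% to 7.86% of them are natural logs of multiples of 0.5 and 0% are on a log2 scale. The authors deposited m6A levels as fractions, printed here as percentages, with adjusted p-values. The RNA values were deposited by the authors as a signal, CPM of a normalized library size, for 15 of 18 libraries, and the other 3 libraries were not analysed here. Whole reads could be recovered from 100% of the values (within 0.1 of a read).

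Coordinates are the authors', from base 1. RNA was tested with limma 3.58.1 (R 4.3.3) on log2(CPM + 1) with a trend, over 18227 genes averaging 1 CPM or more, with 6 group means and 9 residual degrees of freedom, and with Benjamini-Hochberg adjusted p under 0.05 as the call. A log2 change on this scale understates changes of low genes. edgeR 4.0.16 and DESeq2 1.42.0 on recovered reads were alternatives. In data simulated for the ALKBH5 comparison the test was checked first. Members, lists and the rule for named genes were chosen with earlier results of these data known. Named genes were the 12 loci in all 4 tables with the largest smallest effect, the 3 most extreme peaks per table and direction at a mean of at least 10 CPM, list genes with peaks in both sets, the 5 genes per direction with the largest RNA change among genes in both tables of a target, and ALKBH5, RBM33 and DDIT4. NCLN, UBB and CTSL, and the sequence examples, were named in addition after their values were seen. Some genes that this rule names are not reported here. Deviations of same-numbered replicates from their group means had correlations of -0.134 to 0.121 over 12 pairs. In groups of 2 libraries the deviations mirror each other, so these correlations are not independent and cannot exclude pairing.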

Additional observations from a re-analysis of the deposited data

Results flagged for a closer look

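The RNA change differed between the ALKBH5 and the RBM33 comparison, by a limma test of the difference itself across all tested genes, for ALKBH5 and 4 genes with 3'-end peaks. ALKBH5 had a difference of -0.47 (log2, ALKBH5 shRNAs against their scramble minus RBM33 shRNAs against theirs, limma adjusted p = 0.023), with changes of -0.53 and -0.06. BOLA1 had a difference of 1.29 (limma adjusted p = 0.02), with changes of 1.12 and -0.17. NSMCE1 had a difference of 0.62 (limma adjusted p = 0.036), with changes of 0.36 and -0.26. HMG20B had a difference of 0.57 (limma adjusted p = 0.0035), with changes of -0.25 and -0.82. APEX1 had a difference of 0.46 (limma adjusted p = 0.017), with changes of 0.56 and 0.10. These genes were named for their peaks or RNA changes in the same data. For the 4 genes with 3'-end peaks the scramble groups also had unlike levels. In ALKBH5 Scramble against RBM33 Scramble, BOLA1 had 5.8, 3.5 and 5.3 against 12.8, 13.6 and 7.8 CPM. NSMCE1 had 47.6, 44.4 and 49.6 against 58.35, 62.3 and 60.3 CPM. HMG20B had 100, 111 and 111 against 145, 145 and 138 CPM. APEX1 had 82.4, 71.8 and 76.9 against 95.7, 92.7 and 89.6 CPM. The part of the scramble groups in these differences was not tested.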

How the results depend on the processing

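Peak counts moved with the rule by construction. Within 500 bases they were 654, 1031, 139 and 240 for ALKBH5 shRNA-1, ALKBH5 shRNA-2, RBM33 shRNA-1 and RBM33 shRNA-2, within 2000 bases 2367, 3897, 518 and 843, and with effects of at least 1 in size 579, 956, 160 and 268. Shares with higher m6A are listed here where they left a 95% binomial interval around the main share. That interval counts peaks as if independent, so it served to choose what to list and is not a test. The share was 41.0% within 500 bases and 50.7% within 2000 bases for ALKBH5 shRNA-1. It was 79.1% with effects of at least 1 for ALKBH5 shRNA-2, and 95.0% within 500 bases for RBM33 shRNA-2. Leaving out peaks that overlap another gene, chosen after seeing the data, gave shares of 44.7%, 66.6%, 90.5% and 91.4%, with the shRNAs in the order above. Most of the peaks remain in that subset, so its shares could hardly differ much from the main ones. Leaving out 1 library gave 219 to 337 ALKBH5 genes that rose, 79 to 138 that fell, 35 to 49 RBM33 genes that rose and 72 to 123 that fell, and the cause was not tested. With replicate number as a block these counts were 308, 112, 47 and 114. The block ended the calls of CEBPB and HMG20B (ALKBH5), GABARAPL2 and MSANTD2 (RBM33) and NSMCE1 (ALKBH5). Of 2760 recomputations of 120 named RNA results, 2672 kept their call or their lack of a call, 72 lost it and 16 gained it. In 0 of them did a called change have the other sign. Some recomputations left out a library of the other target's set. Those leave the log2 change as it was and could alter a call only through the shared spread or the adjustment, so these counts overstate stability. Depth behind the m6A effects is unknown, and m6A values of single libraries were not analysed here.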
